A study of Mus musculus with 8 samples.

Results

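Ribosome biogenesis and MYC genes were examined in endogenous CD8+ T cells of tumor-bearing mice, split into cells with high IL-18Rα and the cells left over. The set holds 42 genes, found by an exact match of the gene name among the 47493 genes of the deposited table. It consists of MYC, its partner MAX and the related MYCN (Myc, Max, Mycn), 6 nucleolar chaperones, GTPases and a helicase, 3 core proteins of the box C/D snoRNPs, 4 of the box H/ACA snoRNPs, 9 assembly factors of the small ribosomal subunit, 11 of the large subunit, and 6 genes of RNA polymerase I and its factors. All 42 are protein-coding in the GENCODE annotation of the same build (mm10) and they lie on 19 chromosomes.

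Each library came from 1 of 4 female C57BL/6 mice of 6 to 8 weeks. The mice received 200000 B16-F10 melanoma cells on day 0, cyclophosphamide at 300 mg/kg on day 3, and 2000000 ex vivo-primed Pmel-1 cells on day 5. Pmel-1 cells are CD8+ T cells with a transgenic receptor for a melanoma antigen, and here they carried the Thy1.1 marker. IL-2 (10000 IU) was given daily for 3 days with the transfer, and anti-CD4 antibody (200 μg) was given weekly for 3 weeks from day 10, so that CD4+ cells were depleted in every mouse. Spleens and inguinal lymph nodes were taken on day 25, and host CD8+ T cells without Thy1.1 were isolated with beads. Cells bound through a PE-labelled antibody to IL-18Rα formed the enriched fraction (n = 4), and unbound cells formed the flow-through control (n = 4). Both fractions therefore shared all treatments and differed in the column step. The flow-through is defined by what did not bind, so it may hold any cell that the beads and the column let through.

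Ribosomes are built in the nucleolus, where RNA polymerase I transcribes the ribosomal RNA precursor. Small nucleolar ribonucleoproteins (snoRNPs) then modify this precursor, and many assembly factors cut, fold and export the subunits. MYC, bound to DNA as a pair with MAX at the E-box letters CACGTG, is a known activator of many of these genes, and T cells are known to raise MYC and ribosome production when they leave the resting state.

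FPKM scales the fragments of a gene to the length of its transcripts and to the depth of the library, so genes may be compared with each other on it. Summed FPKM ran from 656715 to 711678 per library, and 11706 to 12288 genes reached 1 FPKM. Il18r1, which encodes IL-18Rα, was at a mean of 30.61 FPKM in the flow-through against 110.8 FPKM after enrichment, the direction its selection requires. T-cell genes were present in all 8 libraries: Cd8a ran from 179.2 to 385.0 FPKM and Cd3e from 123.2 to 248.2 FPKM. Flow-through replicate 1 stood apart, since its summed level of 12 T-cell identity genes was 1901 FPKM where the other flow-through libraries had 3000 to 3556 and the enriched libraries 3782 to 4095. The same library had the highest sum of 12 erythroid progenitor genes, 3355 FPKM. The main counts are therefore also given without it.

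Nearly the whole set was lower in IL-18Rα-hi-enriched cells. All 42 genes reached the minimum mean of 1 FPKM for testing. Of these, 38 were lower in the enriched fraction and 0 were higher at an adjusted p under 0.05 (limma on log2(FPKM + 1), Benjamini-Hochberg over 12166 genes), where 13.7% of all tested genes were lower and 14.1% were higher. The other 4 genes, Bop1, Mycn, Bysl and Ubtf, had lower enriched means too and missed the threshold. At an unadjusted p under 0.05, 39 genes were lower and 0 higher. The share of all tested genes at that level was not counted. Over both directions together it is large, since Bop1 with an unadjusted limma p of 0.025 ranked only 4048 of the 12166 genes by p. The unadjusted counts are therefore given as a description. A log2 fold change here is the difference of the fraction means on the log2(FPKM + 1) scale, enriched minus flow-through. Its median over the set was -0.65, and over all tested genes it was -0.018. As a ratio of mean FPKM, the flow-through was 1.62 times the enriched fraction at the median gene, over 1.5 times for 31 genes and over 2 times for 4 genes (Myc, Gnl3, Wdr12 and Polr1b).

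In 36 of the 42 genes every flow-through library was above every enriched library, which held for 15.9% of all tested genes. Within each mouse the median difference of the set was -0.88, -0.39, -0.70 and -0.63 on the log2 scale for mice 1 to 4, and 40 genes were lower in the enriched fraction of all 4 mice (30.6% of all tested genes were). When the mouse was a block, 40 genes were lower and 0 higher, against backgrounds of 22.7% and 22.2%. Without flow-through replicate 1 the count was 31. It was 25 without flow-through replicate 3, without enriched replicate 2 or without enriched replicate 4, and 0 genes were higher in any of these fits. Leaving out a library also left fewer samples, and the number lower among all tested genes moved as well. Its range is given in the section on processing, so these counts are not set against a share here. The direction of the set thus did not rest on 1 library, while the number of genes past the threshold moved with several of them.

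**Figure D1:**
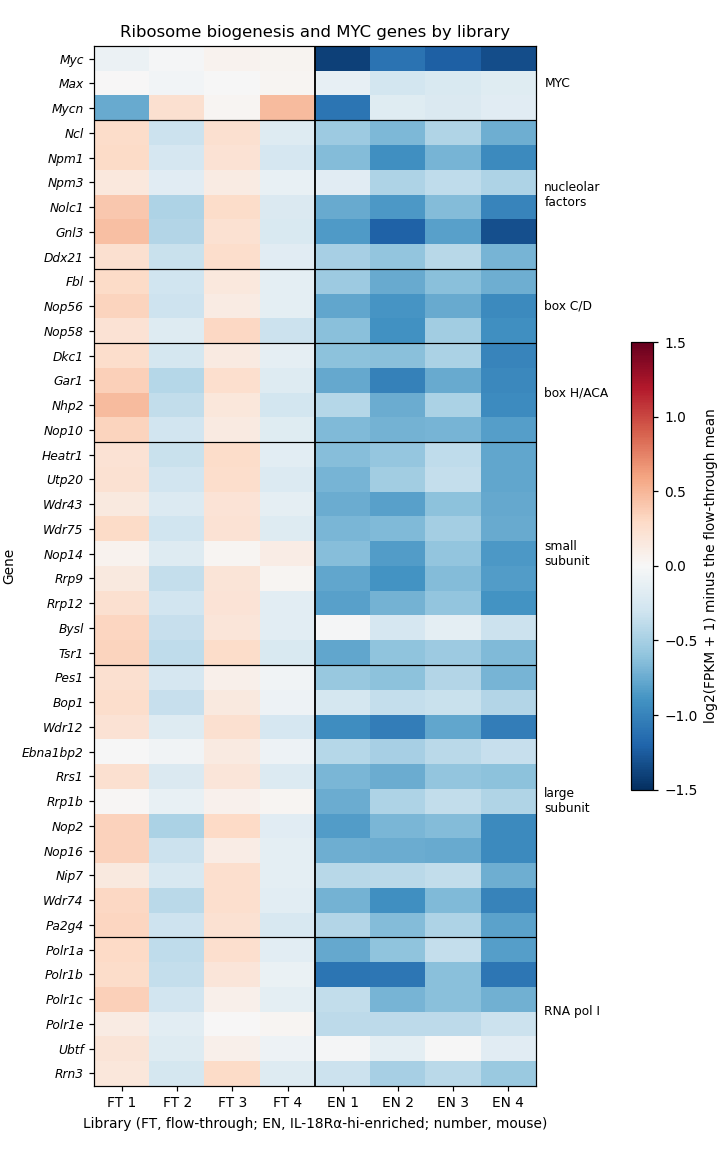
Levels of the 42 genes in each of the 8 libraries, as log2(FPKM + 1) minus the gene's flow-through mean (color, blue lower and red higher), with rows grouped by role and columns by fraction and mouse. The enriched columns are blue for nearly every gene, and flow-through libraries 1 and 3 are above 2 and 4 in 36 genes.

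Summed over the set, the flow-through libraries held 4938, 3392, 4694 and 3621 FPKM for replicates 1 to 4, and the enriched libraries held 2722, 2421, 2744 and 2329 FPKM. Every flow-through sum was above every enriched sum, and the means were 4161 ± 768 and 2554 ± 210 FPKM (SD, n = 4), a difference of -38.6%. Npm1 alone made up 23.8% to 25.4% of the sum in the flow-through and 22.3% to 24.0% in the enriched fraction.

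Of the marker lists, those of erythroid progenitors, stem and early progenitors and naive T cells held genes called lower in the enriched fraction. The other lists held no such gene in the main fit, and several held genes called higher (given below). The 12 erythroid progenitor genes, among them the erythroid regulators Gata1 and Klf1, summed to 3355, 1077, 1785 and 1366 FPKM in flow-through replicates 1 to 4 and to 965.3, 218.6, 597 and 228 FPKM in the enriched ones, with 6 of the 12 lower and 0 higher. In the fit blocked on the mouse 11 of the 12 were lower, where 22.7% of all tested genes were. Without flow-through replicate 1 there were 4, and 2 to 8 when any 1 other library was left out. The erythroid sums put flow-through libraries 1 and 3 above 2 and 4, as in the sums of the set. The red-cell and proliferation sums had this order too, and so did 31.5% of all tested genes. The 9 stem and early progenitor genes summed to 236.2 to 294.7 FPKM in the flow-through and to 91.86 to 113.1 FPKM in the enriched fraction, with 6 lower and 1 higher (Flt3). Without flow-through replicate 1, 5 of them were lower, and 3 to 6 when any 1 other library was left out. Myb, a progenitor regulator of that list, ran from 75.87 to 86.89 FPKM in flow-through libraries and from 22.04 to 33.36 FPKM after enrichment. None of the defining markers in these lists was at 0 in all libraries. The 10 naive T-cell genes summed to 819.1 to 1693 FPKM in flow-through libraries and 876.4 to 1025 FPKM after enrichment, with 5 lower and 0 higher. The ranges overlapped through flow-through replicate 1 alone, as the other flow-through sums were 1596, 1296 and 1693 FPKM, and without that library 8 of the 10 were lower. When any 1 other library was left out, 4 of the 10 were lower. The part of these cells in the result was not tested. In bulk RNA, fewer cells of a type and less RNA per cell cannot be told apart.

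Proliferation genes differed from the set in direction on the deposited scale. With T-cell scaling none passed, and their median was 0.01 where that of the set was -1.07 and that of all tested genes -0.403. The 17 genes, such as Mki67 and Top2a, summed to 2188, 1392, 1732 and 1264 FPKM in the flow-through and to 2623, 2015, 2243 and 1850 FPKM in the enriched fraction, with 6 higher, 0 lower and a median log2 fold change of 0.43. The number higher was 14 with the mouse as a block, where 22.2% of all tested genes were higher. It was 12 without flow-through replicate 1, and 2 to 5 when any 1 other library was left out. The sums of the fractions overlapped, since flow-through replicate 1 was above enriched replicates 2 and 4. Red-cell, granulocyte progenitor, B-cell and plasma-cell genes had 0 calls in either direction with limma, and at an unadjusted p under 0.05 only 3 of 6 plasma-cell genes differed among them, all higher. When the mouse was a block, all 6 plasma-cell genes were higher and 2 of 5 red-cell genes were lower. In each of the granulocyte progenitor and B-cell lists, of 6 tested genes, 1 was higher and 1 lower. Of all tested genes 22.2% were higher and 22.7% lower in that fit. Myeloid (4 of 9), dendritic-cell (5 of 6), NK-cell (5 of 7) and mast-cell and basophil genes (2 of 6) were higher in the enriched fraction where called. Blocking on the mouse gave 8 myeloid and 4 mast-cell and basophil genes. Leaving out 1 library gave 2 to 5 myeloid genes and 0 to 3 mast-cell and basophil genes (2 and 2 without flow-through replicate 1). Of the 12 T-cell identity genes 3 were higher and 0 lower (median log2 fold change 0.41), where 14.1% of all tested genes were higher. With the mouse as a block 4 were higher, against 22.2%, and 1 to 4 when 1 library was left out. These genes are the reference of the T-cell scaling, which therefore lowers values in enriched libraries relative to the flow-through. When each library was scaled to its 12 T-cell identity genes, the median of all tested genes moved to -0.403, the median of the set to -1.07, and 34 of the 42 genes were lower and 0 higher against backgrounds of 16.2% and 4.22%. With that scaling and the mouse as a block, 40 genes were lower and 0 higher against 26.3% and 4.73%. Under both of these fits 0 of the 17 proliferation genes passed in either direction, and their median was 0.01.

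**Figure D2:**
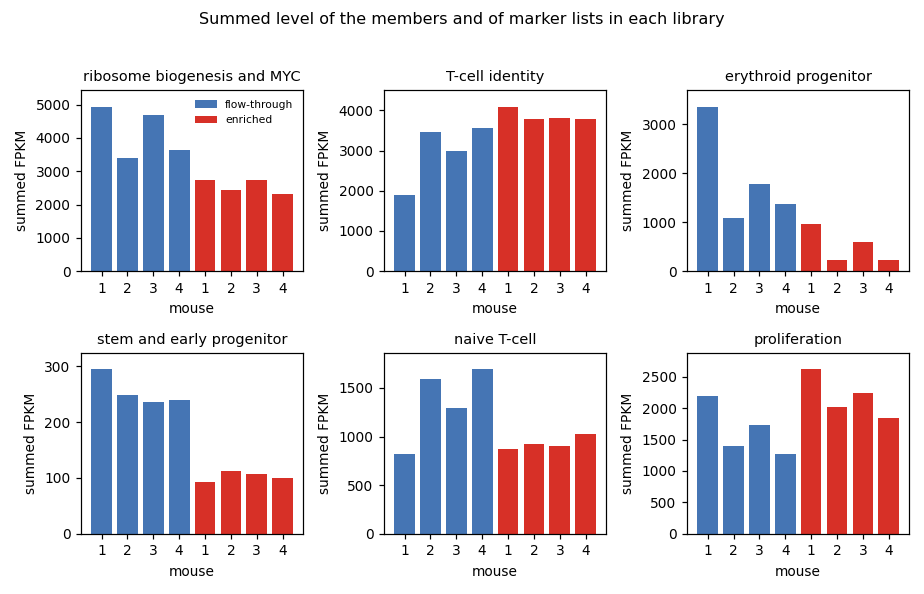
Summed FPKM of the ribosome biogenesis and MYC genes and of 5 marker lists in each library (bars from 0; blue, flow-through; red, IL-18Rα-hi-enriched; numbers, mouse). The sums of the set are lower in each enriched library, erythroid and stem progenitor sums are lower within each mouse, T-cell identity is lowest in flow-through library 1 at 1901, and proliferation sums are higher in the enriched library of each mouse.

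MYC itself differed more clearly than any other gene of the set. Myc (ENSMUSG00000022346; mm10 chr15:61985391-61990374, plus strand) was at 96.38, 101.2, 106.6 and 105.7 FPKM in flow-through replicates 1 to 4 and at 38.04, 46.96, 43.36 and 40.27 FPKM in the enriched ones. The fractions were far from overlapping, and flow-through replicate 1 was the lowest of its group here, unlike for most of the set. The means were 102.5 ± 4.70 and 42.16 ± 3.88 FPKM, a decrease of 58.9%, and the log2 fold change was -1.26 (standard error 0.08, limma with Benjamini-Hochberg adjusted p = 2e-04). By p-value Myc ranked 6 of the 12166 tested genes. An exact two-sided permutation test over the 70 free arrangements of the libraries gave p = 0.0286, the smallest they allow. Exchanging the fractions only within mice leaves 16 arrangements and an exact p of 0.125, the smallest that 4 pairs can give. Across 16 other ways of processing, its log2 fold change stayed between -1.69 and -1.22.

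Max encodes the obligate partner of the MYC proteins and of the MXD repressors. Its level was 63.70, 61.62, 63.12 and 64.54 FPKM in the flow-through against 58.15, 51.98, 53.80 and 55.86 FPKM after enrichment. The libraries did not overlap, but the difference was small, from 63.24 ± 1.23 to 54.95 ± 2.66 FPKM (log2 difference -0.20, standard error 0.06, limma adjusted p = 0.046). This call was lost under 10 of the 16 alternatives, including the removal of any library except enriched replicate 1, with adjusted p between 0.032 and 0.13 over all 16. As a description, the ratio of Myc to Max was 1.51 to 1.69 in the flow-through libraries and 0.654 to 0.903 in the enriched libraries.

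Mycn, the MYC paralog of neural and progenitor cells, was low in both fractions. It was at 1.22, 3.428, 2.821 and 4.216 FPKM in the flow-through against 0.7507, 2.287, 2.221 and 2.327 FPKM after enrichment, so the fractions overlapped. It was lower in the enriched library of each mouse, and mouse 1 was lowest in both. The log2 fold change was -0.42 (standard error 0.31, approximate 95% interval -1.02 to 0.18, limma adjusted p = 0.33), and with the mouse as a block the adjusted p was 0.023.

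The rest of the MYC-MAX network was divided. Of 10 further network genes 9 were tested, 3 were higher and 1 lower, with a median log2 fold change of 0.17, or of -0.25 with T-cell scaling. Mycl, the third MYC paralog, was at 0.3132, 1.216, 1.059 and 1.987 FPKM in the flow-through against 2.911, 5.49, 5.242 and 6.897 FPKM after enrichment. Every enriched library was above every flow-through library, with a log2 fold change of 1.53 (standard error 0.29, limma adjusted p = 0.0068), yet its enriched mean of 5.135 FPKM remained far under that of Myc. Mxd3 and Mxd4, which encode MAX partners that repress E-box genes, are named after their values were seen. Mxd3 had means of 13.3 ± 1.51 FPKM in flow-through libraries and 38.73 ± 4.77 FPKM after enrichment (log2 difference 1.47, standard error 0.11, limma adjusted p = 0.00025). For Mxd4 the means were 20.63 ± 3.75 and 30.47 ± 2.16 FPKM (0.56, standard error 0.13, limma adjusted p = 0.016), and with T-cell scaling the value was 0.14 and no longer passed. Mxi1, another repressor of this family, was lower, at 7.034 ± 0.884 and 5.257 ± 0.643 FPKM (log2 difference -0.36, standard error 0.11, limma adjusted p = 0.044). That call was lost without any 1 library except enriched replicate 2, with no filter, with a minimum of 5 FPKM and with median-ratio or T-cell scaling (11 of the 16 alternatives, adjusted p 0.051 to 0.11). The antagonists Mxd1, Mnt and Mga and the partners Mlx and Mlxip did not pass, and Mlxipl was under the minimum for testing.

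**Figure D3:**
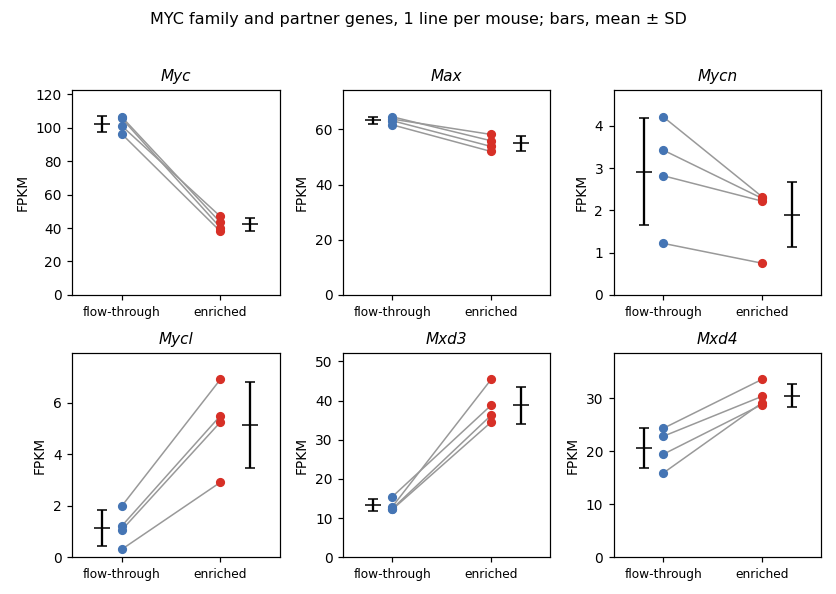
FPKM of 6 genes of the MYC-MAX network in the flow-through and IL-18Rα-hi-enriched fraction, on linear axes from 0, with 1 point per library, a line joining the fractions of each mouse, and the mean ± SD beside the points. Myc was lower and Mxd3 and Mycl were higher in the enriched library of all 4 mice, with no overlap between the fractions.

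Promoters from RefSeq (GRCm38.p6), from 250 bases before to 50 bases after the annotated start, were available for 36 of the 42 genes, while Bop1, Fbl, Myc, Npm1, Rrp12 and Rrs1 had none. The E-box letters CACGTG, which read the same on both strands, were present in 7 of the 36 (19.4%, 95% Wilson interval 9.75% to 35.0%), in 12.2% of 8742 tested genes with a promoter and in 8.09% of all 27025. The intervals of the set and of the tested genes overlapped. Of 111 tested pathway genes outside the set, 27 held CACGTG (24.3%, 95% Wilson interval 17.3% to 33.1%). That interval lay above the one of the tested genes (11.6% to 12.9%). The related letters CACGCG, searched on both strands, were in 11 of the 36 (30.6%) and in 20.2% of the tested genes. Of the 250 bases before the start alone, 2 of the 36 genes (5.56%) held CACGTG against 10.2% of the tested genes and 17.1% of these pathway genes. The 8 matches are shown because MAX pairs are known to bind these letters, in windows on the strand of the gene with the E-box in capitals.
Max: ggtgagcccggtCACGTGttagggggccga
Nop2: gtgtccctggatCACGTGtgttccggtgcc
Pes1: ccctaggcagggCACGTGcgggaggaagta
Rrn3, distal: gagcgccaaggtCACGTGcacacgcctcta
Rrn3, proximal: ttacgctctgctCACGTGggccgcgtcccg
Tsr1: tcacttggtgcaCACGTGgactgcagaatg
Utp20: cggcactaactaCACGTGaggaaaa
Wdr43: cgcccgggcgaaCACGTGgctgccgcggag

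These windows lie at chr12:76962234-76962263 (minus strand) for Max, chr6:125131811-125131840 (plus) for Nop2, chr11:3963965-3963994 (plus) for Pes1, chr11:74898092-74898121 (plus) for Tsr1, chr10:88826765-88826789 (minus) for Utp20 and chr17:71616220-71616249 (plus) for Wdr43. The E-box of Max began 3 bases before the start and that of Nop2 60 bases before it. In Pes1, Tsr1, Utp20 and Wdr43 it began 3, 25, 38 and 18 bases after the start. Rrn3, whose product recruits RNA polymerase I to ribosomal DNA, was the gene with 2 E-boxes, 215 and 48 bases before its start, and its upstream sequence (chr16:13780449-13780698, plus strand) is shown whole with both in capitals.
Rrn3 upstream: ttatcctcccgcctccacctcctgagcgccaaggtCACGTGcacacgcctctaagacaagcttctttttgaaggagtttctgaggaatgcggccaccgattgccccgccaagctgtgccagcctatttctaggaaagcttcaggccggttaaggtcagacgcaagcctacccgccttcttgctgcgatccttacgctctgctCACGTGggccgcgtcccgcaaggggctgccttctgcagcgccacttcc

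The 7 genes with the letters in this window had a median log2 fold change of -0.59 (range -0.78 to -0.20). The 29 without them had -0.65 (range -1.05 to -0.09), so the largest differences among these genes were without the letters. The 6 genes without a promoter, Myc among them, are in neither group, and sequence outside the window was not searched. A match is a description of the letters and not a binding site.

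All 6 nucleolar chaperones, GTPases and helicases were lower, with a median log2 fold change of -0.70. Npm1 (nucleophosmin; chr11:33152287-33163206, minus strand), an abundant histone and ribosome chaperone, was at 1252, 857.7, 1195 and 861.6 FPKM in the flow-through against 653.4, 540.9, 632.2 and 528.4 FPKM after enrichment. It was the most abundant gene of the set, and its lowest flow-through library was above its highest enriched library. The means were 1041 ± 211 and 588.7 ± 63.3 FPKM (log2 difference -0.81, standard error 0.15, limma adjusted p = 0.0069). Gnl3 (nucleostemin; chr14:31012433-31019152, minus strand), a GTPase known from stem and dividing cells, was at 71.09, 37.73, 60.47 and 43.79 FPKM in the flow-through against 28.16, 21.74, 28.86 and 20.17 FPKM after enrichment. Its flow-through libraries spread widely but stayed above all enriched libraries. The mean decreased by 53.6% (log2 difference -1.05, standard error 0.21, limma adjusted p = 0.0086), the second largest difference of the set after Myc.

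The other nucleolar proteins gave intermediate values. Nolc1, a chaperone of snoRNPs, was at 62.10 ± 17.2 and 34.05 ± 3.57 FPKM (log2 fold change -0.81). Ncl (nucleolin), which binds ribosomal RNA and its genes, was at 341.1 ± 71.1 and 221.5 ± 19.4 FPKM (-0.60). The helicase Ddx21 was at 91.92 ± 18.8 and 61.68 ± 5.30 FPKM (-0.55). Npm3, a relative of nucleophosmin, differed least of this group, at 175.6 ± 20.1 and 135.4 ± 13.4 FPKM (-0.37), and its fractions met at 154.7 FPKM in flow-through replicate 2 and enriched replicate 1. Npm1 therefore stood at 5.89 ± 0.543 times Npm3 in the flow-through and 4.35 ± 0.246 times in the enriched fraction, with no overlap between libraries. The calls of Ncl and Ddx21 were lost without flow-through replicate 3, enriched replicate 2 or enriched replicate 4 (adjusted p 0.057 to 0.072). The call of Npm3 was lost without these 3 libraries, flow-through replicate 1 or enriched replicate 3, with T-cell scaling and with no filter (0.051 to 0.092).

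Both classes of snoRNP core proteins were lower throughout. Box C/D snoRNPs guide ribose methylation of ribosomal RNA, with fibrillarin as the methyltransferase and the NOP proteins as its scaffold. Fibrillarin (Fbl; chr7:28169710-28179269, plus strand) was at 296.8, 197.3, 271.2 and 220.4 FPKM in the flow-through against 166.9, 143.3, 157.4 and 145.5 FPKM after enrichment, and Nop56 was at 309.2, 196.8, 267.8 and 221.5 against 142.4, 132.5, 145.0 and 125.7 FPKM. In both genes all flow-through libraries were above all enriched libraries. The log2 fold change was -0.67 for Fbl (standard error 0.13, limma adjusted p = 0.0085) and -0.84 for Nop56 (standard error 0.14, limma adjusted p = 0.0042). Nop58, the partner of Nop56, was at 231.5 ± 49.0 and 136.5 ± 19.0 FPKM (-0.74). The ratio of Nop56 to Fbl was 0.988 to 1.04 in the flow-through and 0.853 to 0.925 in the enriched fraction, whereas that of Nop56 to Nop58 overlapped (1.08 ± 0.131 and 1.01 ± 0.0792).

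Box H/ACA snoRNPs convert uridine to pseudouridine in ribosomal RNA, and the same 4 proteins bind the telomerase RNA. Gar1 was at 114.2, 65.93, 106.2 and 77.38 FPKM in the flow-through against 51.72, 43.42, 52.28 and 45.08 FPKM after enrichment, and Nop10 was at 119.0, 76.69, 103.7 and 83.01 against 58.98, 57.20, 57.82 and 52.87 FPKM. Neither gene overlapped between the fractions, and the enriched libraries of Nop10 lay within a narrow range. The log2 fold change was -0.87 for Gar1 (standard error 0.17, limma adjusted p = 0.0086) and -0.72 for Nop10 (standard error 0.14, limma adjusted p = 0.0069). Nhp2, the most abundant of this group, was at 178.0, 98.47, 144.1 and 105.6 FPKM in the flow-through against 94.70, 75.71, 91.42 and 66.20 FPKM after enrichment. Its lowest flow-through library was just above its highest enriched library, and the log2 fold change was -0.65 (standard error 0.20, limma adjusted p = 0.043). That call was lost without flow-through replicate 1 or 3 or any 1 enriched library, with median-ratio or T-cell scaling and with no filter on low values (adjusted p 0.051 to 0.11). Dkc1 (dyskerin), the pseudouridine synthase, was at 70.48 ± 11.8 and 43.58 ± 6.50 FPKM (-0.68).

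Of the 9 small-subunit factors 8 were lower, with a median of -0.65. Wdr43, a subunit of the complex that first binds the nascent precursor, was at 55.41, 43.31, 57.78 and 45.50 FPKM in the flow-through against 29.55, 28.10, 32.37 and 28.91 FPKM after enrichment. Nop14, of the small-subunit processome, was at 28.38, 23.76, 27.89 and 29.54 FPKM in the flow-through against 17.23, 14.82, 17.85 and 14.63 FPKM after enrichment. The fractions of both genes were well apart, and Nop14 was among the few genes whose flow-through replicate 4 was the highest. The log2 fold change was -0.74 for Wdr43 (standard error 0.11, limma adjusted p = 0.0027) and -0.73 for Nop14 (standard error 0.10, limma adjusted p = 0.0020).

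Rrp9, the protein of the U3 snoRNP, had the largest difference of the small-subunit factors, at 50.79 ± 8.39 and 28.63 ± 2.23 FPKM (log2 fold change -0.79). Rrp12, which takes part in subunit export, was at 17.38 ± 3.28 and 9.816 ± 0.973 FPKM (-0.75). Wdr75 was at 33.24 ± 6.89 and 20.48 ± 1.61 FPKM (-0.65). The genes of the large scaffold proteins Heatr1 and Utp20 had the same difference of -0.59, with means of 22.49 ± 4.76 and 14.40 ± 1.81 FPKM for Heatr1 and 10.35 ± 2.24 and 6.505 ± 0.991 FPKM for Utp20. Tsr1, a late factor on the cytoplasmic precursor, was at 30.05 ± 7.58 and 18.35 ± 1.32 FPKM (-0.65), but 32.3% of its exon bases overlap Srr on the opposite strand, whose own log2 fold change was -0.43. If the levels were estimated without strand, as the default options imply, reads from the shared bases may have been counted for either gene. The calls of Heatr1, Utp20 and Tsr1 were lost without flow-through replicate 3 or enriched replicate 1, 2 or 4, and that of Utp20 also without flow-through replicate 1 and with no filter (adjusted p 0.051 to 0.075).

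Bysl was the small-subunit factor that did not pass. It was at 33.53, 20.74, 30.35 and 23.68 FPKM in the flow-through against 26.18, 22.12, 23.90 and 21.16 FPKM after enrichment, so the fractions overlapped and 3 of 4 mice had a lower enriched library. The log2 fold change was -0.19 (approximate 95% interval -0.48 to 0.11, limma adjusted p = 0.38). Of its exon bases, 9.4% overlap Ccnd3 on the opposite strand, which was higher in the enriched fraction at 178.2 ± 11.5 and 238.4 ± 17.6 FPKM (log2 fold change 0.42), and the part of that overlap was not tested.

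Among the 11 large-subunit factors 10 were lower, with a median of -0.59. PES1, BOP1 and WDR12 form the PeBoW complex, which acts in large-subunit precursor processing, and its genes differed in degree. Wdr12 (chr1:60069785-60098645, minus strand) was at 36.19, 26.93, 36.70 and 25.91 FPKM in the flow-through against 15.77, 14.59, 17.61 and 14.67 FPKM after enrichment, with a log2 fold change of -0.95 (standard error 0.13, limma adjusted p = 0.0023). Pes1 was at 50.84 ± 7.40 and 33.54 ± 2.61 FPKM (-0.58, limma adjusted p = 0.0080). Bop1 was at 70.92, 46.24, 65.07 and 55.95 FPKM in the flow-through against 48.70, 45.57, 46.53 and 43.23 FPKM after enrichment. Flow-through replicate 2 of Bop1 lay within the range of the enriched libraries. The difference of Bop1 was -0.35 (approximate 95% interval -0.60 to -0.10). Its adjusted p was 0.074 with limma, and 0.025 with the mouse as a block. Without flow-through replicate 2 the value was -0.46 (adjusted p 0.013). Wdr12 stood at 0.618 ± 0.065 times Pes1 in the flow-through and 0.467 ± 0.0137 times in the enriched fraction, and Pes1 at 0.859 ± 0.0398 and 0.729 ± 0.0459 times Bop1, in each case without overlap.

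Pa2g4, the most abundant large-subunit factor and a growth-regulated RNA-binding protein, was at 221.0, 142.6, 207.9 and 150.3 FPKM in the flow-through against 129.9, 112.5, 128.1 and 101.0 FPKM after enrichment. The fractions did not overlap, and the log2 fold change was -0.59 (standard error 0.16, limma adjusted p = 0.027). That call was lost without flow-through replicate 3, enriched replicate 2 or enriched replicate 4 and with no filter (adjusted p 0.053 to 0.079). Ebna1bp2, a nucleolar scaffold of early precursors, was at 66.26, 64.40, 73.18 and 62.90 FPKM in the flow-through against 49.08, 46.92, 50.25 and 52.33 FPKM after enrichment. Its difference was among the smaller ones (log2 difference -0.42, standard error 0.07), but its libraries agreed closely within each fraction and the limma adjusted p was 0.0054.

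The other large-subunit factors lay between -0.83 and -0.48. Wdr74 was at 50.32 ± 11.9 and 27.49 ± 3.24 FPKM (log2 fold change -0.83), Nop16 at 38.37 ± 8.08 and 21.37 ± 1.53 FPKM (-0.80), and the RNA cytosine methyltransferase Nop2 at 48.27 ± 12.9 and 26.97 ± 2.64 FPKM (-0.78). Rrs1, which helps to load the small ribosomal RNA of the large subunit, was at 35.51 ± 6.22 and 21.87 ± 1.12 FPKM (-0.66). Rrp1b was at 25.95 ± 1.38 and 18.03 ± 2.04 FPKM (-0.51). Nip7 was at 23.67 ± 3.95 and 16.61 ± 1.94 FPKM (-0.48), and its call was lost without any 1 of flow-through replicates 1 and 3 and the 4 enriched libraries and with no filter (adjusted p 0.051 to 0.080).

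For RNA polymerase I and its factors, 5 of 6 genes were lower, with a median of -0.52, and 2 to 5 when 1 library was left out (3 without flow-through replicate 1). Polr1b (chr2:129100995-129126594, plus strand) encodes the second largest subunit of the enzyme and was at 39.47, 25.03, 36.71 and 30.17 FPKM in the flow-through against 14.59, 14.71, 20.62 and 14.79 FPKM after enrichment. The fractions did not overlap, and enriched replicate 3 lay above the other enriched libraries. The means were 32.84 ± 6.51 and 16.18 ± 2.96 FPKM (log2 difference -0.97, standard error 0.16, limma adjusted p = 0.0047). Polr1a, the largest subunit, was at 21.70 ± 5.02 and 13.43 ± 2.19 FPKM (-0.64) with overlapping libraries. Polr1b was 1.44 to 1.59 times Polr1a in the flow-through and 1.08 to 1.28 times in the enriched fraction.

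Polr1c, shared with RNA polymerase III, was at 53.95 ± 11.1 and 34.80 ± 4.13 FPKM (log2 fold change -0.60). Polr1e was at 29.55, 24.06, 27.12 and 27.66 FPKM in the flow-through against 20.36, 20.38, 20.38 and 21.34 FPKM after enrichment. Its enriched libraries were nearly identical, all of them under the flow-through libraries, and the log2 fold change was -0.37 (standard error 0.08, limma adjusted p = 0.0097). Rrn3 was at 22.95 ± 4.46 and 16.36 ± 1.23 FPKM (-0.45, limma adjusted p = 0.038). The call of Rrn3 was lost without any 1 library except flow-through replicate 2 or 4, with T-cell scaling and with no filter (adjusted p 0.050 to 0.10), and those of Polr1a and Polr1c without flow-through replicate 3, enriched replicate 2 or enriched replicate 4 (0.055 to 0.079), with that of Polr1a also lost without flow-through replicate 1 (0.051) or enriched replicate 1 (0.063) and with no filter (0.055).

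Ubtf, the architectural factor of active ribosomal DNA and the most abundant gene of this group, was the gene of the set with the smallest difference. It was at 83.10, 63.41, 76.61 and 69.14 FPKM in the flow-through against 71.69, 65.73, 72.21 and 64.36 FPKM after enrichment. The fractions overlapped, and 3 of 4 mice had a lower enriched library. The log2 fold change was -0.09 (approximate 95% interval -0.27 to 0.10, limma adjusted p = 0.53).

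**Figure D4:**
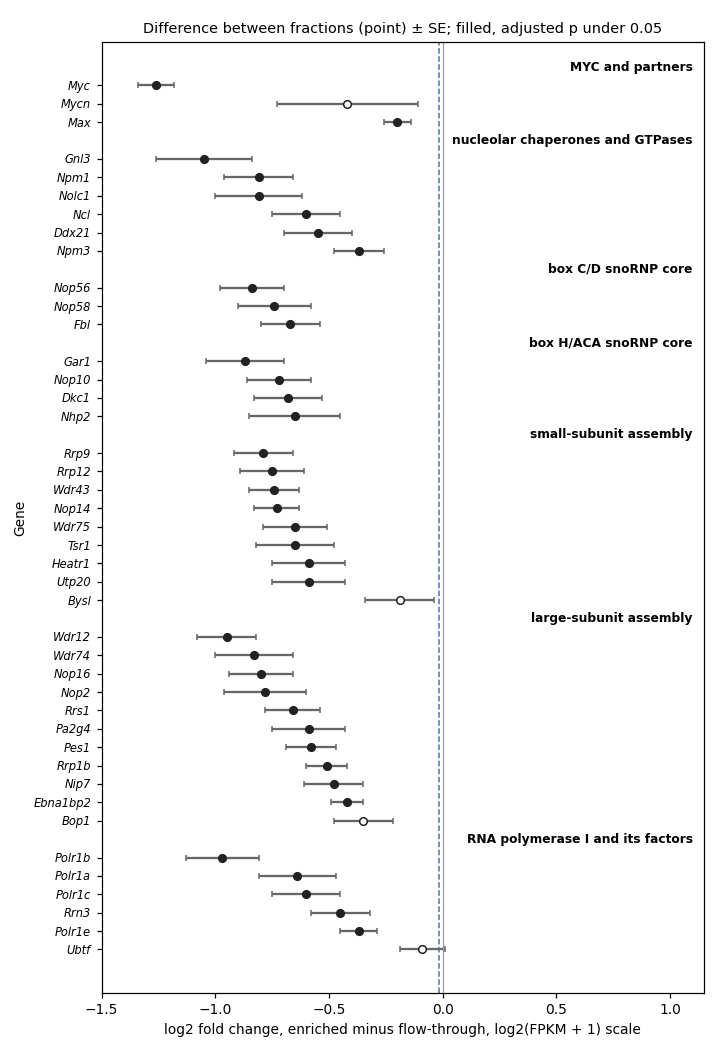
Log2 fold change (enriched minus flow-through, log2(FPKM + 1) scale) of each of the 42 genes with its standard error, grouped by role; filled points passed an adjusted p of 0.05 and open points did not, and the dashed line is the median of all tested genes (-0.018). Every point lies below 0, from -1.26 for Myc to -0.09 for Ubtf, and the open points are Mycn, Bysl, Bop1 and Ubtf.

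The genes also varied together among the libraries of a fraction. Flow-through replicates 1 and 3 were both above replicates 2 and 4 in 36 of the 42 genes, against 31.5% of all tested genes. The exceptions were Myc, Max, Mycn, Nop14, Rrp1b and Polr1e. Flow-through replicate 1 was the highest of its group in 27 genes and replicate 2 the lowest in 37. Among the enriched libraries, replicate 3 was the highest in 26 genes (21.1% of all tested genes) and replicate 4 the lowest in 28 (24.5%). Myc itself thus did not follow the order of the libraries that most of the set showed.

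Pathway genes outside the set were mostly lower as well, by smaller amounts. Of 131 such genes tested, 71 were lower and 3 higher, with a median log2 fold change of -0.39. With the mouse as a block 90 were lower, where 22.7% of all tested genes were. At an unadjusted p under 0.05, 87 were lower and 5 higher, and the 5 higher genes were in the MYC-MAX network and the MYC-induced list. For all tested genes the share at that level was not counted. Without flow-through replicate 1 the number lower was 54, and without flow-through replicate 3, enriched replicate 2 or enriched replicate 4 it was 33, 39 and 35. Calls among all tested genes moved in such fits too, and their range is given in the section on processing. Of 36 further small-subunit factors 23 were lower and 0 higher (median -0.41). Without flow-through replicate 1 the number was 13, and it was 11 to 26 when any 1 other library was left out. Pwp2, a subunit of the processome, had the largest difference, from 22.33 ± 3.45 to 11.76 ± 1.06 FPKM (log2 fold change -0.86, limma adjusted p = 0.0022). Of 42 further large-subunit factors 30 were lower and 0 higher (median -0.44), led by Nle1, a late assembly factor, at 38.00 ± 6.64 and 18.15 ± 2.06 FPKM (-1.02, limma adjusted p = 0.0020). Leaving out 1 library gave 15 to 33 of these large-subunit factors lower.

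Of 14 further RNA polymerase I genes 6 were lower and 0 higher (median -0.24), and 3 to 7 were lower when 1 library was left out. The subunit gene Cd3eap, which overlaps Ercc1 on the opposite strand, was at 12.30 ± 2.13 and 7.461 ± 0.920 FPKM (log2 fold change -0.65, limma adjusted p = 0.0098). Of 12 RNA exosome genes, whose complex trims ribosomal RNA precursors, 4 were lower and 0 higher (median -0.26). Leaving out 1 library gave 2 to 6 lower. With the mouse as a block 8 were lower, where 22.7% of all tested genes were. Exosc5 was at 83.02 ± 6.25 and 53.41 ± 3.33 FPKM (-0.63, limma adjusted p = 0.0017).

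Among 18 MYC-induced genes that act outside the nucleolus 7 were lower and 0 higher, with a median of -0.55. With the mouse as a block 12 were lower, where 22.7% of all tested genes were, and without flow-through replicate 1 there were 5. When any 1 other library was left out there were 2 to 10. Srm, the spermidine synthase of polyamine production, was at 182.4, 99.51, 173.5 and 116.4 FPKM in the flow-through against 59.86, 59.49, 68.91 and 49.98 FPKM after enrichment. Its libraries did not overlap, and the log2 fold change of -1.21 (standard error 0.20, limma adjusted p = 0.0045) was close to that of Myc. The other 6 were Cad (pyrimidine synthesis), Cdk4 (cell cycle entry), Phb, Hspd1, Hspe1 and C1qbp (mitochondrial proteins), between -0.85 and -0.54. Ldha, of glycolysis, had means of 548.7 and 584.8 FPKM, and the cyclin gene Ccnd2 at 50.35 ± 7.73 and 51.99 ± 4.99 FPKM, with log2 fold changes of 0.10 and 0.05 that did not pass. Tfrc, the transferrin receptor, which is abundant in erythroid precursors, was at 199.7, 67.48, 140.6 and 73.01 FPKM in the flow-through against 81.87, 35.9, 64.8 and 33.82 FPKM after enrichment. Its libraries overlapped (log2 fold change -1.09, limma adjusted p = 0.079), but it was lower in the enriched library of 4 of 4 mice, and it passed in the fit blocked on the mouse (adjusted p 0.00026). The order of the libraries within each fraction matched the erythroid progenitor sums in replicates 1 and 3 above 2 and 4. In the flow-through, 31.5% of all tested genes had that order.

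**Figure D5:**
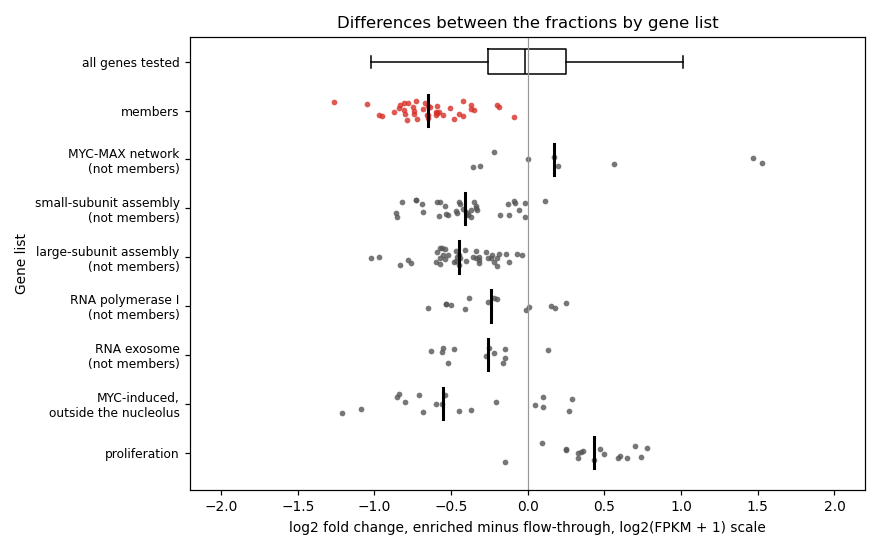
Log2 fold changes (enriched minus flow-through, log2(FPKM + 1) scale) of the set (red points), of pathway genes outside it and of proliferation genes (grey points), 1 point per gene with a black bar at each list's median, beside a box plot of all tested genes (box, quartiles; center line, median; whiskers, the last gene within 1.5 times the box's width, genes beyond them not shown). The set has its median at -0.65, the further small- and large-subunit factors at -0.41 and -0.44, the MYC-MAX network at 0.17 and proliferation genes at 0.43. With T-cell scaling, which also lowers the median of the set, the last 2 medians are -0.25 and 0.01.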

How the data were processed

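RNA was sequenced from 4 flow-through and 4 IL-18Rα-hi-enriched libraries, grouped by their labels. Each mouse gave both fractions and same-numbered libraries were taken as 1 mouse. Their deviations from the group means correlated at 0.308 to 0.66, those of other pairs at -0.6 to 0.412. The deposited values are FPKM, which the authors estimated per gene with Cufflinks 2.1.1 after filtering reads and mapping them to mm10 with TopHat, with correction for multiply mapped reads and fragment bias. Other Cufflinks options were defaults, which implies that strand was not used, but the strand setting of the mapping is not given. The annotation release is not given in the sources used here. FPKM carry no exact depth, so the depth is unknown from the table and neither count models nor counting intervals were used.

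Fractions were compared with limma 3.58.1 (R 4.3.3) on log2(FPKM + 1) with a variance trend and no block, over the 12166 genes whose mean reached 1 FPKM. Adjustment for multiple testing followed Benjamini and Hochberg over these genes, with a threshold of 0.05. A fold change on this scale understates the change of low genes. Values after ± are SD of 4 libraries. The scripts were tested on simulated data. Alternatives were the mouse as a block, a pseudocount of 0.1, no filter, a minimum mean of 5 FPKM, median-ratio scaling, scaling to 12 T-cell identity genes, no variance trend, leaving out each library, and, chosen after seeing the data, T-cell scaling with the block.

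The genes, pathway lists and marker lists were chosen with earlier results of these data known, so no test over a list was made. Genes given in every library were Myc, Max and Mycn, the most abundant gene of each other role and the 2 with the smallest p. In each pathway list the called gene with the largest difference in each direction was named. Of these pathway genes, Mycl and Srm were given in every library and the others as means. Bop1, Bysl and Tfrc, which missed the threshold, were also given in every library. Positions came from GENCODE M21 (98.95% of identifiers found) and promoters from RefSeq. Exon bases were shared with another gene in 19 of the 42 genes, and only Tsr1 shared over 10%. Npm3 has 1 named copy there, and copies under other names were not searched. Riok2 and Exosc6 were not analysed here.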

Additional observations from a re-analysis of the deposited data

Results flagged for a closer look

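In 5 of the 98 groups of 4 libraries examined, 1 library lay farther from the others than Dixon's 95% limit allows, and chance alone flags about 1 in 20 groups. Each was an enriched library. Mycn was at 0.7507 FPKM in enriched replicate 1, where the other enriched libraries were at 2.221 to 2.327 FPKM, and the flow-through library of the same mouse was the lowest of its group as well. Nop16 was at 19.07 FPKM in enriched replicate 4 against 22.01 to 22.25 FPKM in the others, and Nip7 was at 13.74 FPKM in the same library against 17.27 to 17.95 FPKM. Polr1b was at 20.62 FPKM in enriched replicate 3 against 14.59 to 14.79 FPKM. Polr1e was at 21.34 FPKM in enriched replicate 4 against 20.36 to 20.38 FPKM, a gap that is narrow in FPKM because the other 3 values nearly coincide.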

How the results depend on the processing

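Of the 38 genes called lower, 25 stayed called under each of the 16 alternatives, 13 were lost under 1 or more, and 0 reversed. With the mouse as a block (the pairing comes from the mice), 40 genes of the set were lower, Mycn (adjusted p 0.023) and Bop1 (0.025) being added, and over all tested genes 2705 were higher and 2763 lower, where 1720 and 1664 were without it. T-cell scaling gave 513 higher and 1968 lower genes and a median of -1.07 for the set, and T-cell scaling with the block gave 575 higher, 3194 lower and the same median of -1.07. Leaving out 1 library gave 25 to 38 lower genes in the set, 33 to 82 in the other pathway lists, 1107 to 1813 higher and 939 to 1780 lower among all genes, a set median of -0.77 to -0.56 and a log2 fold change of Myc of -1.32 to -1.22. With no filter on low values, 22789 genes were tested and 31 of the set were lower. A minimum of 5 FPKM left 41 genes of the set, of which 38 were lower, and the other settings gave 36 to 38. E-box letters were in 19.4% of the promoters, and in 5.56% when only the bases before the start were read. The causes of these shifts were not tested. With 4 libraries per fraction a single library decides calls of genes near the threshold, and the number of fragments behind a value is unknown.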

Other observations

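Some gene pairs of the set stood in different ratios in the 2 fractions, and others did not. Npm1 was 3.06 ± 0.11 times Ncl in the flow-through and 2.66 ± 0.132 times in the enriched fraction, with no overlap between libraries. In the box H/ACA core, Gar1 was 0.944 ± 0.0681 times Nop10 in the flow-through and 0.848 ± 0.0631 times in the enriched fraction, and Nhp2 was 1.44 ± 0.0994 and 1.70 ± 0.158 times Gar1, with overlapping libraries in both. The ratio of Polr1c to Polr1a overlapped as well, at 2.51 ± 0.215 and 2.64 ± 0.558. These ratios are descriptions and were not tested.

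Per 10000 of summed FPKM, the set took 47.7 to 75.2 in the flow-through and 33.6 to 41.8 in the enriched libraries. By mean level over the 8 libraries, Npm1 stood at percentile 99.0 of all tested genes, Ncl at 97.4 and Fbl at 96.3, whereas Mycn stood at 11.9 and Utp20 at 35.0.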
